A study of Mus musculus with 2 samples.

Results

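The genes described here are the mouse cyclin, cyclin-dependent kinase (CDK), CDK inhibitor, E2F, MCM, CDC and ORC genes. They were chosen by symbol among the protein-coding genes of RefSeq: Ccn followed by a letter and a digit, Cdk and a digit, Cdkn, E2f and a digit, Mcm and a digit, Cdc and digits, or Orc and a digit. The rule found 109 of 21883 genes: 17 Ccn, 26 Cdk, 10 Cdkn, 8 E2f, 10 Mcm, 32 Cdc and 6 Orc genes. Of these, 22 have a longer symbol that names them after a partner, such as Cdc42ep1 or Cdk5rap2. The signal was acetylation of histone H4 at lysine 16 (H4K16ac), mapped by CUT&Tag, in which an antibody brings a transposase to the modified chromatin. The cells were mouse primary macrophages, grown from bone marrow with recombinant M-CSF at 20 ng/ml. Both groups received R848, an agonist of the RNA sensor TLR7, at 100 ng/ml for 2 h. The groups differ in genotype, labelled WT (wild type) and KAT8-cKO (cKO below, KAT8-deficient in the plots), the latter a conditional knockout of KAT8, the main H4K16 acetyltransferase. Each group is 1 library. The sources used here name neither the Cre driver nor the age or number of the mice, and the deletion could not be checked from peaks.

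Cyclins bind and activate CDKs, and the inhibitors of the Cdkn genes hold them back. Active CDKs phosphorylate the retinoblastoma family, which frees the activating E2F factors to switch on the genes of DNA replication. Among these are the MCM subunits of the replicative helicase, which the origin recognition complex (ORC) and Cdc6 load onto origins and which the kinase Cdc7 and the factor Cdc45 help to start. Macrophages grown in M-CSF can divide, and the D-type cyclins are known for linking such growth factors to CDKs.

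Each library has 1 list of peaks. A peak carries a fold, its height over the caller's background, and a −log10 q, both the authors' own values, which rank peaks within a list. A gene is called marked where a peak lies within 1 kb of either annotated end, and strongly marked where the −log10 q of such a peak is at least 5. A q-value depends on the depth and the background of its library, and the sources used here give no read totals. The lists held 58229 WT and 55149 cKO peaks, with median folds of 2.90 and 2.78. There was no replicate, so no test between genotypes was made. Intervals are 95% Wilson intervals over genes or peaks, and they cover counting error only. A lower value in a bulk library can come from fewer cells that carry the mark or from less of it per cell, and these cannot be told apart. Of 8 macrophage genes, 4 (Spi1, Cd14, Cebpa and Cd68) were marked in both lists. Csf1r, Adgre1 and Tyrobp were marked in WT and Itgam in the cKO list, and the highest −log10 q among the 8 was 3.83, at Tyrobp in WT. Of 12 genes of T cells, B cells, neutrophils and fibroblasts, Col1a1 was marked in both lists and Lck in WT, with −log10 q values of at most 0.774, and the other 10 had no peak.

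MCM genes are known targets of the E2F factors, and promoters with E2F-like letters are printed because H4K16ac peaks of both lists cover part or all of each. RefSeq promoter windows of 300 bases (GRCm38.p6) were matched to 94 of the 109 genes, some with several starts, among them 9 of the 10 Mcm genes. Capitals mark E2F-like letters, found on either strand as TTTCCCGC, TTTGGCGC, TTTCGCGC, TTCCCGCC or TTTGGCGG. Overlapping matches are joined, since TTTCCCGC and TTCCCGCC share letters. The 5 Mcm promoters with such letters come first. E2f3, the most strongly marked E2f gene with the letters, and Orc1, whose start lies outside the gene-end windows, follow.
Mcm3: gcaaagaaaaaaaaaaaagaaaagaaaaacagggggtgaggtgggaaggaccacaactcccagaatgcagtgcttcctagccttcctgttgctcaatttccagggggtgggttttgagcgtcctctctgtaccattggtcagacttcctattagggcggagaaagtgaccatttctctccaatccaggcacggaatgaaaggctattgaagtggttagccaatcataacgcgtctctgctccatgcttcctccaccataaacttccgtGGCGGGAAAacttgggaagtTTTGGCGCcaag
Mcm5: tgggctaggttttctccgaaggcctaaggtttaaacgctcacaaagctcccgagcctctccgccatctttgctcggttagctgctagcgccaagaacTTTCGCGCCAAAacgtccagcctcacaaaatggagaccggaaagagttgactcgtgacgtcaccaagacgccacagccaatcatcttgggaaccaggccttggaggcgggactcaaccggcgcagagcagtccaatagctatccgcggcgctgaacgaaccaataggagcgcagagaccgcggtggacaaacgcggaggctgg
Mcm6: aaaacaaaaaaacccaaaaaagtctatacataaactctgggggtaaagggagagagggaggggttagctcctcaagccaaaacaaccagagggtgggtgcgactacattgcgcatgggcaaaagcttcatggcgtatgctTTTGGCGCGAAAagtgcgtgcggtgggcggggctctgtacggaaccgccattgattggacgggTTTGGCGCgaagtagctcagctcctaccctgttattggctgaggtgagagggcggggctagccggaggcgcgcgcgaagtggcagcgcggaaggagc
Mcm7: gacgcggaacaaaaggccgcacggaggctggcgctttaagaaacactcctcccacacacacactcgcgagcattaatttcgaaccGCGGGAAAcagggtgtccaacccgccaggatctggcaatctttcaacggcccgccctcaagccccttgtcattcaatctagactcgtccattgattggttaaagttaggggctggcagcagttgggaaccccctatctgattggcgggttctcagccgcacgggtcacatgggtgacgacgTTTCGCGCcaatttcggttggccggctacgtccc
Mcm8: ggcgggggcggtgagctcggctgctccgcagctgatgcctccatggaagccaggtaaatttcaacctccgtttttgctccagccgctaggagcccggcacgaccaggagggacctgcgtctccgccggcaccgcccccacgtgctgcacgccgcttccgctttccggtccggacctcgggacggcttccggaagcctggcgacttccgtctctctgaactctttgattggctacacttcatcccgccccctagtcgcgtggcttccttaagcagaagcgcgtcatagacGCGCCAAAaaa
E2f3: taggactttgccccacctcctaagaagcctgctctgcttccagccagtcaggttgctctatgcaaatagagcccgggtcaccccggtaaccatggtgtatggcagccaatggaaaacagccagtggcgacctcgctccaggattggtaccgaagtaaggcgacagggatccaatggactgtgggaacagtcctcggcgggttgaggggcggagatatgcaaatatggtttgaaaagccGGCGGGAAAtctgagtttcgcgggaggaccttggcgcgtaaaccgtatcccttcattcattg
Orc1: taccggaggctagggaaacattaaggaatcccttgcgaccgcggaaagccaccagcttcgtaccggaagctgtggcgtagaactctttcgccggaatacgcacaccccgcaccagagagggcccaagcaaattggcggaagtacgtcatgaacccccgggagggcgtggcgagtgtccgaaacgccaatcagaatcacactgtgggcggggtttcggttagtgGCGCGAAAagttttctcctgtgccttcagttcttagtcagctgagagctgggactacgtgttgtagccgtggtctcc
The windows lie at chr1:20820263-20820562 (minus strand), chr8:75109259-75109558 (plus), chr1:128359656-128359955 (minus), chr5:138171834-138172133 (minus), chr2:132815891-132816190 (plus), chr13:29986014-29986313 (minus) and chr4:108579204-108579503 (plus). The Mcm6 window holds 3 matches, 268 of its 300 bases lay under the WT peak and 259 under the cKO peak. Of the Mcm3 window 254 and 124 bases were covered in the same order, of Mcm5 167 and 160, and of E2f3 288 and 178. All 300 bases of the Mcm8 and Orc1 windows were covered in both lists. At Mcm7 244 and 200 bases were covered. Over all members, 18 of 94 (19.1%, 12.5 to 28.3) had E2F-like letters in at least 1 promoter window, against 1016 of 17491 protein-coding genes (5.81%) and 1220 of all 27025 genes of the promoter table (4.51%). The letters stood in 5 of 9 Mcm, 3 of 6 E2f and 3 of 6 Orc genes, in 4 of 29 Cdc, 2 of 22 Cdk and 1 of 9 Cdkn genes, and in 0 of 13 Ccn genes. The CHR letters TTTGAA or TTCGAA, known from promoters of mitotic genes, stood in 22 of 94 members (23.4%) and in 20.2% of protein-coding genes, and the CCAAT letters in 51 (54.3%) and 42.3%. The GC content of a gene's richest window had a median of 63.5% over members and 57.3% over protein-coding genes, and its part in these shares was not tested. Of the 18 members with E2F-like letters 14 were marked in both lists (77.8%), and of the 76 without 48 were (63.2%). Over all protein-coding genes these shares were 56.1% with the letters and 35.4% without. A strong WT peak was found at 4 of the 18 (22.2%) and 18 of the 76 (23.7%), against 18.2% and 12.6% over all genes. A match is a description of the letters and not a binding site.

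Most of the 109 members carried an H4K16ac peak in both genotypes. In WT 81 of 109 members were marked (74.3%, 65.4 to 81.6), against 46.8% of all protein-coding genes. In the cKO list 77 were (70.6%, 61.5 to 78.4), against 43.3%. Both lists marked 70 members, against 35.8% of all genes; 11 were marked in WT alone, against 11.1%, and 7 in the cKO list alone, against 7.52%. The remaining 21 members had no peak in either list, against 45.7% of all genes. Thus 13.6% (7.76 to 22.7) of the members with a WT peak lacked a cKO one, against 23.6% of all such genes, and 9.09% (4.47 to 17.6) lacked a WT one in the other direction, against 17.4%. Among the 73 members whose windows no other protein-coding gene overlaps, 51 were marked in WT and 48 in the cKO list, against 5546 and 5158 of 14836 such genes.

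**Figure D1:**
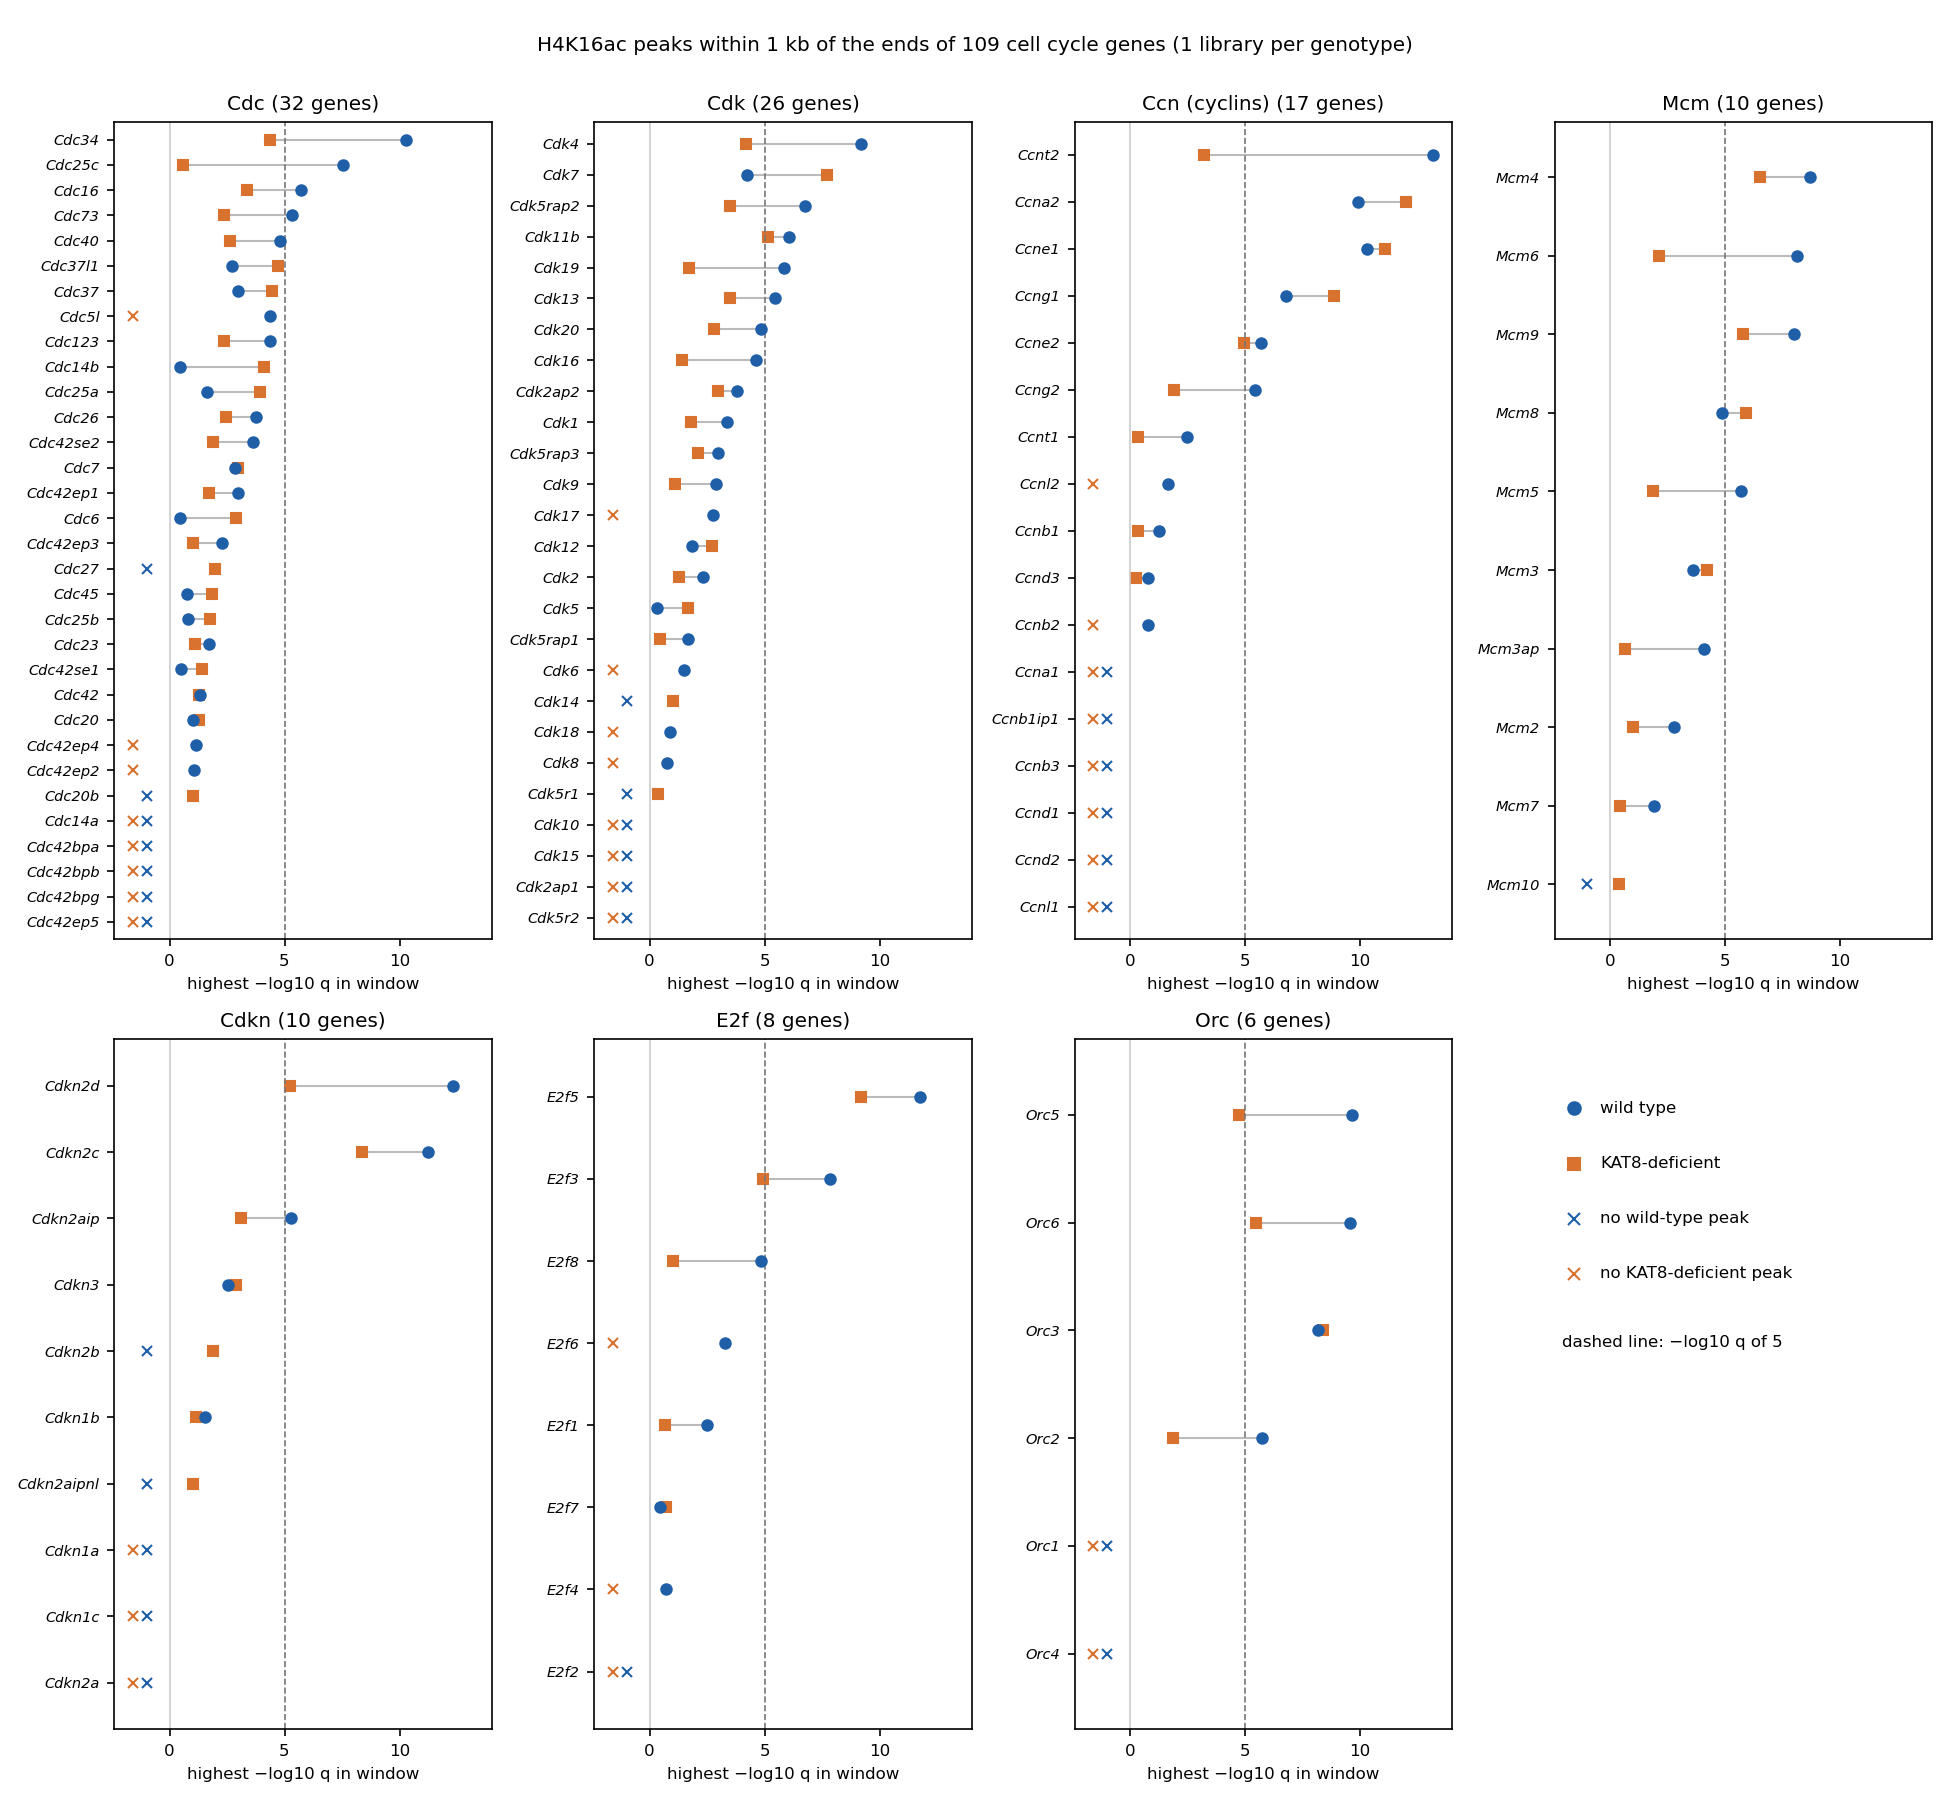
Highest −log10 q of any H4K16ac peak within 1 kb of the ends of each of the 109 genes, in panels by symbol, with circles for WT, squares for the cKO list and crosses for no peak (1 library each). Circles lie to the right of the dashed line at 5 for 28 genes and squares for 13.

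The strength of the peaks separated the lists more than their presence did. Strong peaks stood at 28 members in WT (25.7%, 18.4 to 34.6; all genes 12.4%) and at 13 in the cKO list (11.9%, 7.1 to 19.3; all genes 5.99%). The ratio of the counts was 0.464 for the members and 0.482 for all genes. Of the 28, 11 were also strong in the cKO list, which is 39.3% (23.6 to 57.6), against 36.9% over all genes. That pooled share was close to the background. Split by windows the counts are small, the intervals overlap, and the difference was not tested. With windows free of other genes 4 of 18 members were strong in both (22.2%, 9.0 to 45.2; all genes 35.3%), and with overlapping windows 7 of 10 (70.0%, 39.7 to 89.2; all genes 38.5%). Peaks with a −log10 q of 10 or more stood at 6 members in WT, against 3.03% of all genes, and at 2 in the cKO list, against 0.832%. Among the 70 members marked in both lists, the fold was higher in WT at 52 (74.3%, 63.0 to 83.1; all genes 70.4%) and the −log10 q at 49 (70.0%; all genes 69.8%). Their median fold was 3.78 in WT and 3.32 in the cKO list, and their median −log10 q 4.14 and 2.54. Over all genes marked in both, the medians were 3.66 and 3.21 for the fold and 3.52 and 2.37 for −log10 q.

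**Figure D2:**
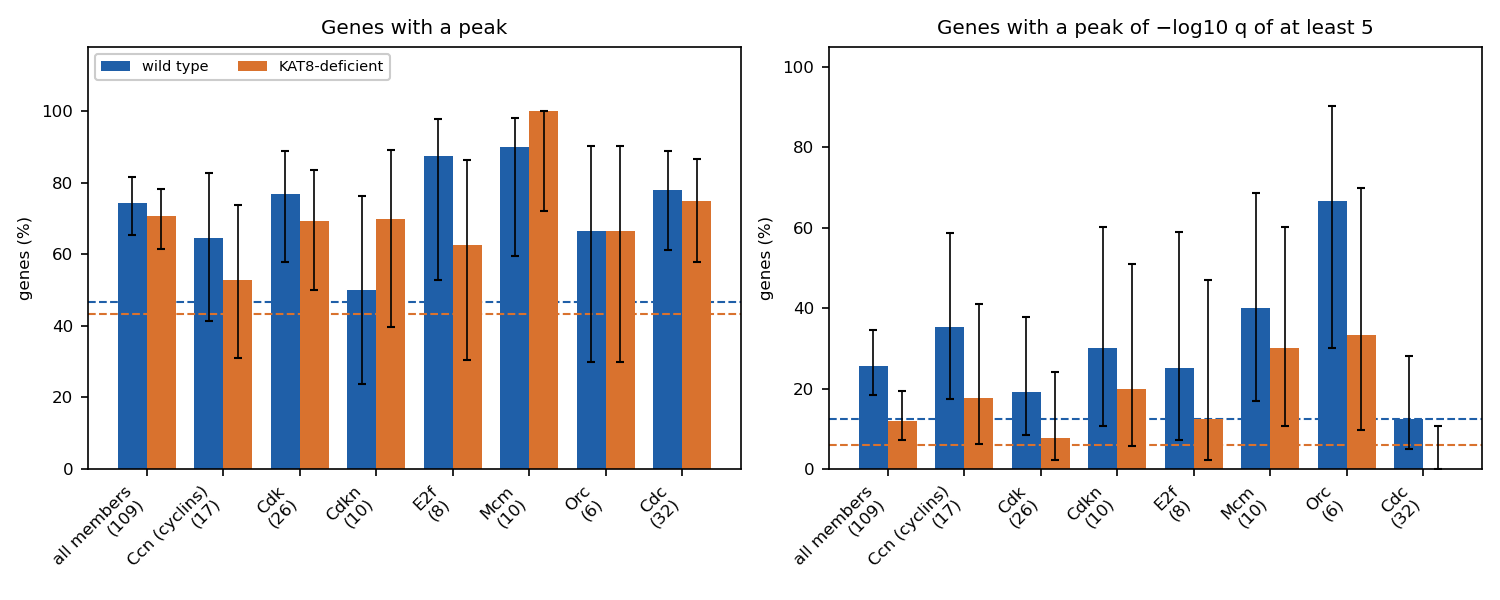
Share of genes with any peak (left) and with a peak of −log10 q of at least 5 (right), in percent, for all members and by symbol, with gene numbers in brackets, 95% Wilson intervals as error bars and dashed lines for all protein-coding genes. All 10 Mcm genes were marked in the cKO list.

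The cyclin genes held both the strongest WT peak of the set and the members that were strongest in the cKO list. Of 17, 9 were marked in both lists, 2 in WT alone and 6 in neither. Ccnt2, whose product pairs with Cdk9 to release paused RNA polymerase II, had a WT peak at chr1:127773657-127774723 with a fold of 6.27 at a −log10 q of 13.2. The cKO peak at nearly the same place had a fold of 3.67 at a −log10 q of 3.21, well below the strong threshold. Ccna2, the cyclin of S phase and mitotic entry, went the other way: its fold was 5.35 in WT and 5.48 in the cKO list, with −log10 q values of 9.93 and 12. That peak (chr3:36571855-36572477 in WT) also lies at an end of Bbs7. Ccne1, which drives Cdk2 at the start of S phase, had folds of 4.97 and 4.92 and −log10 q values of 10.3 and 11.1 (WT peak chr7:38107034-38107975). Its paralog Ccne2 had folds of 4.40 and 4.12, with −log10 q values of 5.71 and 4.96. For both E-type cyclins the values of the lists thus lay close together. Ccng1, a target of p53, had −log10 q values of 6.79 in WT and 8.87 in the cKO list. Its folds were 4.39 and 4.95. The related Ccng2 had −log10 q values of 5.46 and 1.93 at folds of 4.41 and 3.05, in peaks that do not overlap each other. Another cKO peak, of no higher fold, overlapped its WT peak. The WT peaks of Ccne2, Ccng1 and Ccng2 stood at chr4:11190867-11191758, chr11:40754676-40755700 and chr5:93266896-93267399. The mitotic cyclin Ccnb1 had weak peaks, with −log10 q values of 1.26 and 0.374, and Ccnb2 a weak WT peak alone (0.774). Ccnl2, which acts in splicing, was marked in WT alone, with a fold of 3.07 at a −log10 q of 1.65 (chr4:155824772-155824971).

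The D-type cyclins, which answer to growth factors, were weakly marked or unmarked at their gene ends. Ccnd3 had −log10 q values of 0.810 in WT and 0.262 in the cKO list, for peaks that also lie at an end of Bysl. The summits of these peaks lay 6047 and 5602 bp downstream of the nearest RefSeq start. The gene with 5 kb on both sides held 8 WT and 9 cKO peaks. Whether any of them lies at a RefSeq start is not given here, so the gene-end values do not describe the Ccnd3 promoter. Ccnd1 and Ccnd2 had no peak within the window, and the promoter table gives no start for either. At Ccnd1 the nearest peaks lay 1478 bp (WT, −log10 q 0.661) and 1585 bp (cKO, 2.16) from a gene end, and at Ccnd2 2150 and 8442 bp. Ccna1 and Ccnb3, known from germ cells, the meiotic gene Ccnb1ip1, and Ccnl1 were the other unmarked ones. At Ccnl1, however, strong peaks of both lists (−log10 q 10.6 and 6.47) lay over the RefSeq start, inside the annotated gene and 3110 bp from its end in WT.

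Of 26 Cdk genes, 16 were marked in both lists, 4 in WT alone, 2 in the cKO list alone and 4 in neither. Cdk4, the partner of the D-type cyclins, had the strongest WT peak of the Cdk genes (chr10:127063189-127063756), with a fold of 4.90 at a −log10 q of 9.19. Its cKO peak had a fold of 3.56 at a −log10 q of 4.20. Cdk7, the CDK-activating kinase of the general transcription factor TFIIH, was stronger in the cKO list, with −log10 q values of 4.21 in WT and 7.72 and folds of 4.15 and 4.49 (cKO peak chr13:100730733-100731094). Of 70 members marked in both lists, 6 were strong in the cKO list with a higher −log10 q there than in WT (8.57%; all genes 7.36%): Ccna2, Ccne1, Ccng1, Cdk7, Mcm8 and Orc3. Cdk11b, a kinase linked to splicing, was strong in both lists, with −log10 q values of 6.07 and 5.14 and folds of 4.58 and 4.34 (chr4:155624384-155625240 in WT). Besides Cdk4, those strong in WT alone were Cdk5rap2, a centrosome protein (6.75 against 3.51), Cdk13, which phosphorylates RNA polymerase II (5.44 against 3.49), and Cdk19 of the Mediator kinase module (5.86 against 1.69). The folds were 4.63 and 3.52 at Cdk5rap2 (chr4:70410346-70410769 in WT), 4.55 and 3.84 at Cdk13 (chr13:17804411-17805721) and 4.47 and 3.06 at Cdk19. The peak of Cdk19 in WT (chr10:40348815-40349403) was overlapped by no cKO peak, but the cKO peak of Cdk19 stood close by at chr10:40349598-40350156. Its paralog Cdk8 had a weak WT peak alone, with a −log10 q of 0.774. The kinases of S phase and mitosis were of middle strength, with −log10 q values of 2.30 and 1.29 at Cdk2 and 3.36 and 1.79 at Cdk1. Cdk6 (1.49), Cdk17 (2.73) and Cdk18 (0.868) were also marked in WT alone, Cdk6 at chr5:3341204-3341709 with a fold of 3.04 and Cdk17 at chr10:93160378-93160982 with 3.66. At Cdk6, however, a cKO peak lay 1036 bp from a gene end, just outside the window. Its fold of 3.63 and −log10 q of 2.91 were above the WT values. Marked in the cKO list alone were Cdk14 (1.01) and Cdk5r1 (0.374). The X-linked Cdk16 had −log10 q values of 4.64 and 1.41.

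**Figure D3:**
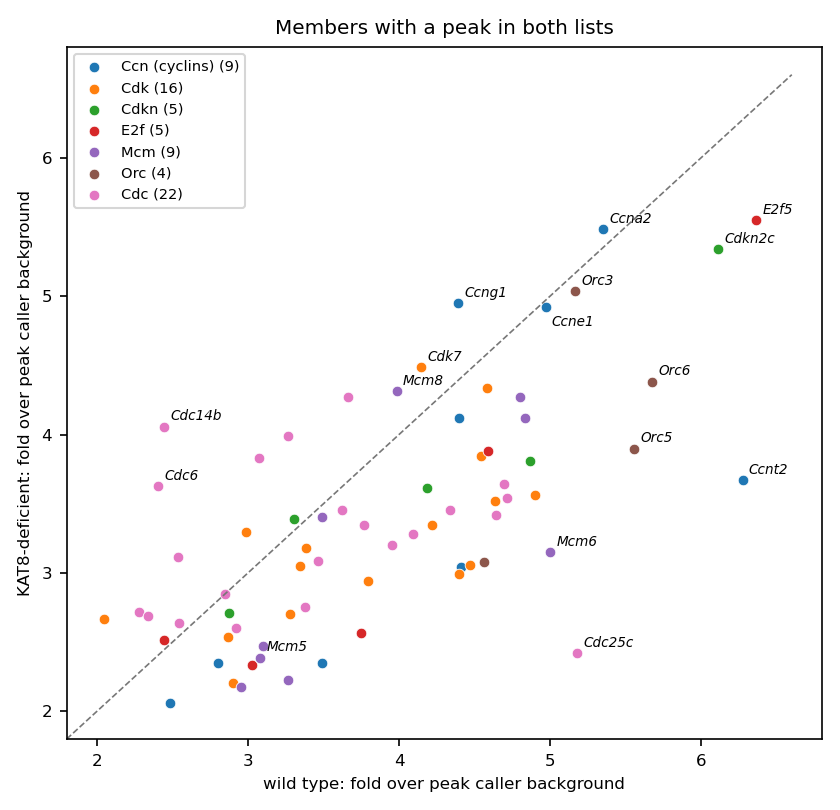
Fold over the peak caller's background in the WT list (x axis) and the cKO list (y axis) for the 70 members marked in both, coloured by symbol, with a dashed line of equality. The points of 52 members lie below the line, among them Ccnt2 (6.27 and 3.67) and Mcm6 (5.0 and 3.15).

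Among the Cdkn genes, the inhibitors of Cdk4 and Cdk6 differed widely. Cdkn2c (fold 6.11 in WT and 5.34 in the cKO list) and Cdkn2d (4.87 and 3.81) were strong in both lists. Their −log10 q values were 11.2 and 8.39 for Cdkn2c (WT peak chr4:109666782-109667145) and 12.3 and 5.25 for Cdkn2d (chr9:21291111-21291657). Cdkn2b was marked in the cKO list alone, with a fold of 3.20 at a −log10 q of 1.87 (chr4:89310592-89310988). The nearest WT peak lay 41265 bp from its ends. Its neighbour Cdkn2a, whose second product is the p53 activator ARF, had no peak of either list in the gene or within 5 kb of it. The inhibitors of the other family were weak or unmarked: Cdkn1b had −log10 q values of 1.52 and 1.16, and Cdkn1a, the p53 target p21, and Cdkn1c had no peak in the window. At Cdkn1a peaks of both lists lay just over 2 kb from an end, at 2182 bp in WT and 2171 bp in the cKO list, with −log10 q values of 3.33 and 0.651. Cdkn3, a phosphatase that acts on CDKs, had 2.54 and 2.91. Cdkn2aip, an ARF-binding protein, was strong in WT alone (5.28 against 3.09, at folds of 4.18 and 3.61; chr8:47713525-47714495), and Cdkn2aipnl was marked only in the cKO list (1.01).

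The E2f genes ranged from the highest WT fold of all members to none. E2f5, a repressor E2F, had a fold of 6.36 in WT (chr3:14578525-14579198) and 5.55 in the cKO list, with −log10 q values of 11.8 and 9.20. Of the activators, E2f3 had −log10 q values of 7.82 and 4.94 at folds of 4.59 and 3.88 (chr13:29986026-29986847 in WT), E2f1 2.51 and 0.663, and E2f2 no peak. The repressors E2f4 and E2f6 were marked in WT alone. The E2f6 peak (chr12:16810936-16811214) had a fold of 3.74 at a −log10 q of 3.30, and that of E2f4 2.35 and 0.689, in a window shared with Elmo3. The atypical E2f8 had −log10 q values of 4.83 and 1.03 and E2f7 had 0.435 and 0.709. In all, 5 of 8 were marked in both lists, 2 in WT alone and 1 in neither.

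All 6 subunits of the replicative MCM helicase were marked in both lists, but with unequal strength. Mcm4 and Mcm6 were strongest in WT, with folds of 4.83 and 5.0 and −log10 q values of 8.71 and 8.14. In the cKO list Mcm4 had a fold of 4.12 at a −log10 q of 6.5 and Mcm6 3.15 and 2.12. The Mcm4 peak (chr16:15637104-15638116 in WT) is shared with the facing end of Prkdc, the DNA repair kinase. The Mcm6 peak (chr1:128359494-128359923) lies in no window of another gene. Mcm5 was strong in WT by its −log10 q, 5.68, at a fold of only 3.08, and its cKO peak had 1.87 at a fold of 2.39 (chr8:75109392-75109726 in WT). Mcm3 lay near equality, with folds of 3.49 and 3.40 and −log10 q values of 3.63 and 4.23. Mcm2 had −log10 q values of 2.80 and 1.01. Mcm7 had 1.91 and 0.458, in peaks that do not overlap each other and that also lie at an end of Ap4m1. Mcm8 and Mcm9, which act together in homologous recombination, were among the 3 Mcm genes strong in the cKO list, with Mcm4. Mcm8 had −log10 q values of 4.87 and 5.90, in a peak shared with Trmt6, and Mcm9 8.02 and 5.80. Their folds were 3.99 and 4.32 at Mcm8 (cKO peak chr2:132815802-132816563) and 4.8 and 4.27 at Mcm9 (WT peak chr10:53629522-53630386). Mcm3ap, a factor of mRNA export, had 4.07 and 0.663. Mcm10, which helps to start the helicase, was marked in the cKO list alone and very weakly, with a fold of 2.2 at a −log10 q of 0.374.

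Of 6 ORC genes, 4 were strongly marked in WT and the other 2 had no peak at a gene end. Orc5 (fold 5.56) and Orc6 (5.68) had WT −log10 q values of 9.67 and 9.57, Orc3 (5.17) had 8.16 and Orc2 (4.57) had 5.76. Their WT peaks stood at chr5:22549639-22550534, chr8:85299104-85300131, chr4:34614716-34615177 and chr1:58504465-58505244. In the cKO list Orc3 had a −log10 q of 8.41, Orc6 5.49, Orc5 4.74 and Orc2 1.87, at folds of 5.04, 4.38, 3.90 and 3.08. Orc3 was the only one of them with a higher −log10 q in the cKO list, and its peak is shared with Rars2. That of Orc6 is shared with Vps35. Orc1, the subunit whose level is known to follow the cell cycle in human cells, and Orc4 were unmarked by the rule. Both carried peaks of both lists over a RefSeq start, more than 1 kb inside the annotated gene. Those of Orc1 had folds of 2.91 and 3.44 and −log10 q values of 2.25 and 3.94 (WT peak chr4:108578860-108579791, over the printed promoter). Those of Orc4 had folds of 3.92 and 4.48 and −log10 q values of 3.58 and 5.41. At both genes the cKO value was thus the higher one, and with their starts counted all 6 ORC genes were marked in both lists.

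The Cdc genes are named after yeast mutants and share no single function. Of 32, 22 were marked in both lists, 3 in WT alone, 2 in the cKO list alone and 5 in neither. Strong peaks stood at 4 in WT (12.5%; all genes 12.4%) and at 0 in the cKO list (upper bound 10.7%; all genes 5.99%), both near the background. Cdc34, a ubiquitin-conjugating enzyme of the SCF ligase, had a −log10 q of 10.3 in WT (chr10:79681207-79682260) and 4.37 in the cKO list, with folds of 4.72 and 3.54. Cdc25c, a phosphatase that activates Cdk1, had a WT peak with a fold of 5.18 at a −log10 q of 7.54 at chr18:34751418-34751770. Its cKO peak lay at the opposite end of the gene and was weak (0.575), so no cKO peak overlapped the strong one. Cdc16, a subunit of the anaphase-promoting complex, had 5.72 and 3.36, and Cdc73 of the Paf1 transcription complex 5.33 and 2.37. Their folds were 4.69 and 3.64 at Cdc16 (chr8:13757496-13757857 in WT) and 4.64 and 3.42 at Cdc73 (chr1:143702360-143703097). Cdc5l, a spliceosome component, had the strongest peak of a single list among all members, in WT at chr17:45433209-45433875 with a fold of 4.25 at a −log10 q of 4.39.

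Several Cdc genes, some of them of DNA replication, had a higher −log10 q in the cKO list. Cdc6, the loader of the MCM helicase, had folds of 2.40 in WT and 3.63 in the cKO list and −log10 q values of 0.435 and 2.91. Cdc45 had −log10 q values of 0.764 and 1.86, in peaks that do not overlap each other and that also lie at an end of Ufd1. Cdc7 lay near equality, with −log10 q values of 2.86 and 2.99 and a fold that was higher in WT (3.62 and 3.45). Cdc25a, the CDK-activating phosphatase of the start of S phase, had 1.65 and 3.93. Among the Cdc genes with a higher fold in the cKO list, the phosphatase Cdc14b differed most, with folds of 2.44 and 4.06 and −log10 q values of 0.435 and 4.10. The same fold and −log10 q as at Cdc14b recur at 3006 WT peaks and at 352 cKO peaks. Those of Cdc6 in the cKO list recur at 944 cKO peaks. The Hsp90 partner Cdc37 had −log10 q values of 2.99 and 4.46, and its relative Cdc37l1 2.73 and 4.74. Of the 22 Cdc genes marked in both lists, the fold was higher in WT at 12, or 54.5% (34.7 to 73.1), against 70.4% of all genes. For the other symbols together the fold was higher in WT at 40 of 48. This comparison of symbols was made after the values were seen and was not tested. Cdc27 of the anaphase-promoting complex was marked in the cKO list alone, with a fold of 3.16 at a −log10 q of 1.97 (chr11:104550109-104550396), as was Cdc20b (1.01). In WT alone, Cdc42ep2 and Cdc42ep4 had −log10 q values of 1.05 and 1.14.

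The peaks called in a single list were mostly weak. Of the 11 in WT alone, 5 had a q-value under 0.05 (Ccnl2, Cdc5l, Cdk17, Cdk6 and E2f6), and of the 7 in the cKO list alone 2 did (Cdc27 and Cdkn2b). None of these 18 peaks was overlapped by any peak of the other list. The selection almost fixes this, since their windows held no peak of that list. The weak peaks take few distinct values. The fold of 2.69 and −log10 q of 0.774 at both Cdk8 and Ccnb2 recur at 4733 WT peaks, and the fold of 2.78 and −log10 q of 1.01 at Cdk14, Cdc20b and Cdkn2aipnl recur at 4984 cKO peaks. Of 22 members with a WT q-value under 0.05 and a −log10 q under 3, 3 lacked a cKO peak (13.6%; all genes 30.2%). Of members with a WT −log10 q of 3 to 5, 2 of 15 lacked a cKO peak (13.3%; all genes 12.2%). Among the 16 members with a WT q-value of 0.05 or more, 6 did (37.5%; all genes 50.5%), and among the 28 with a strong peak 0 did, with a Wilson upper bound of 12.1% (all genes 3.16%).

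Counted by peaks instead of genes, 68 of 105 WT peaks at members were overlapped by a cKO peak (64.8%, 55.3 to 73.2), against 60.7% of peaks at all gene ends. In the other direction 69 of 95 were (72.6%, 62.9 to 80.6), against 67.8%. Of the 28 strong WT peaks at members, a cKO peak overlapped 26, against 2162 of 2260 strong WT peaks at all gene ends. The peaks of Cdc25c and Cdk19 were the 2 that no cKO peak overlapped. At 56 of the 70 members marked in both lists the peaks of the highest fold overlapped each other (80.0%, 69.2 to 87.7; all genes 82.8%), with a median of 100 bp between their summits. At the other 14, among them Cdk2, Cdk5, Cdc42, Ccnb1 and Mcm7, the peaks of the highest fold lay apart. The 11 members strong in both lists were Ccna2, Ccne1, Ccng1, Cdk11b, Cdkn2c, Cdkn2d, E2f5, Mcm4, Mcm9, Orc3 and Orc6. At 7 of these 11 the windows overlapped those of another gene, against 533 of the 1004 protein-coding genes strong in both lists.

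Most summits lay near the starts of the genes. Of the 71 marked members with a RefSeq start in the promoter table, 66 had their WT summit within 1 kb of it, and 67 of 68 did in the cKO list (93.0% and 98.5%; all genes 82.8% and 81.3%). The median position of these summits was 6.5 bp downstream of the start in WT and 3 bp upstream in the cKO list. Their quartiles, positive downstream, were −134 and 117 bp in WT and −146.5 and 177 bp in the cKO list. Only summits within 1 kb on either side enter, which draws a median towards the start. Over all genes the medians were −1 and 34 bp. At Ccnd3, Ccnl2, Cdk18, Cdk6 and Cdc42ep1 the WT summit lay farther away, 25858 bp downstream in the case of Cdk18. The cKO peak of Cdc42ep1 stood 49 bp from its start.

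**Figure D4:**
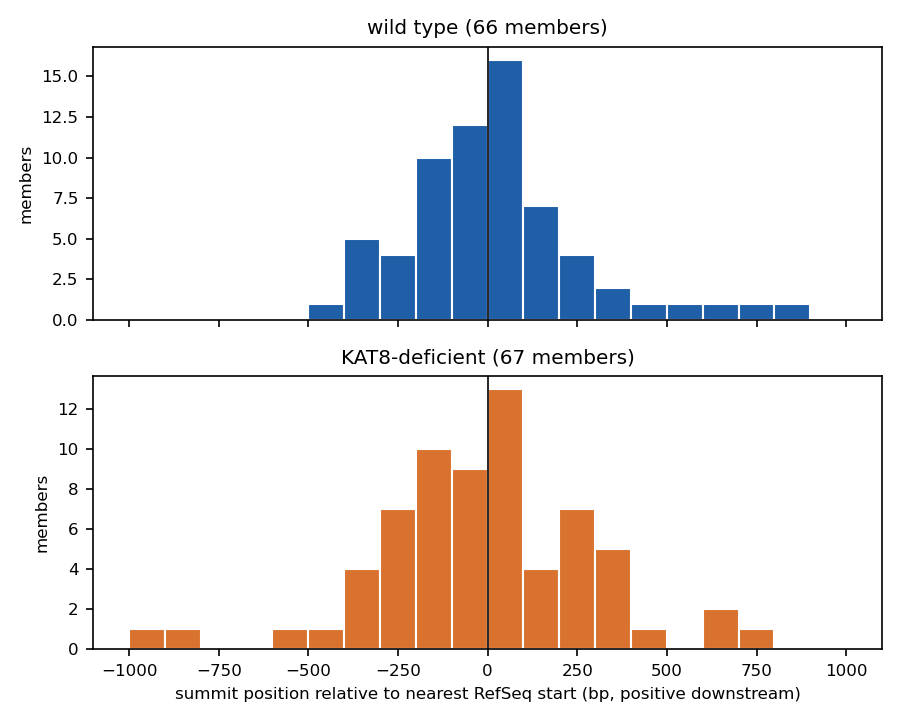
Number of members by the position of the peak summit relative to the nearest RefSeq start, in bins of 100 bp (positive is downstream), for 66 WT and 67 cKO peaks. Both medians lie near the start, and summits more than 1 kb away are left out.

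Of the 21 members without a peak in either list, 13 had a peak of at least 1 list within 3 kb of an end. For 17 of them the promoter table gives a start, and 6 had a peak within 1 kb of one, 5 in both lists: Ccnl1, Cdc14a, Cdc42bpb, Orc1 and Orc4. The gene-end rule thus missed a peak near a start at these 6, and it counted 5 members whose WT summit lay more than 1 kb from a start. The same shares were not computed over all unmarked genes. Windows of 1 kb around the starts alone marked 75 of 94 members in WT and 75 in the cKO list. Over the 17491 protein-coding genes with a start, 8171 and 7463 were marked. At Cdkn1a a weak WT peak (−log10 q 0.866) lay 18 bp from a RefSeq start. Close to the edge of the window, Cdc42ep4 was counted with a WT peak 865 bp from its end. Cdc42bpb was not, with a strong WT peak at 1323 bp (−log10 q 8.91) and a cKO one at 1104 bp (1.34). Cdk6 was counted in WT alone, although a cKO peak lay 1036 bp from its end. At Ccnb1ip1, Ccnb3, Cdk5r2 and Cdkn2a neither list held a peak in the gene or within 5 kb of it. The unmarked members not yet named were Cdc42bpa, Cdc42bpg, Cdc42ep5, Cdk10, Cdk15 and Cdk2ap1.

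A list of 73 other cell cycle genes that the symbol rule leaves out was drawn up with earlier results of these data known. Most of these listed genes were marked too, which is no independent check on the members. Of 73, 64 were marked in WT (87.7%, 78.2 to 93.4; all genes 46.8%) and 59 in the cKO list (80.8%, 70.3 to 88.2; all genes 43.3%). These intervals overlap those of the members. Both lists marked 57, WT alone 7 and the cKO list alone 2. Strong peaks stood at 23 in WT (31.5%; all genes 12.4%) and at 13 in the cKO list (17.8%; all genes 5.99%), 12 of them in both. Of 12 listed genes of the anaphase-promoting complex and its regulators, both lists marked 11 and the cKO list alone Anapc15 (1.89). Fzr1, its activator in G1, had −log10 q values of 20.8 and 8.61, and Anapc16 had 16.7 and 5.93. Of the DREAM complex, which holds E2F targets silent in resting cells, Lin52 had 15.9 and 10.2. Mybl2, a mitotic activator that binds the same core, had 7.13 in WT and 9.24 in the cKO list. The retinoblastoma gene Rb1 was marked in WT alone (2.17). Of 26 replisome genes 20 were marked in both lists, with the highest WT value at Gins2 (16.7 and 6.32), a partner of the MCM helicase. Pola1 (3.33), Recql4 (2.21) and Rfc3 (2.17) were marked in WT alone and Rfc2 (1.03) in the cKO list alone. The spindle checkpoint gene Mad2l1 had 15.75 and 7.61, while Bub1 (1.18) and Cks1b (1.87) were marked in WT alone. Of the cyclins without a digit in their symbol, Ccnk, the partner of Cdk12 and Cdk13, had 13.7 and 5.1, and Ccno was marked in WT alone (0.774).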

How the data were processed

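Each library was represented by the narrowPeak list its authors deposited. The submitters' processing notes name mm10, MACS2 2.2.7.1, DiffBind and Bowtie 0.12.8 without roles. The sources used here give no control library, duplicate handling or settings. The deposited values per peak are a score, a fold (ratio) over background, the −log10 of p and q, and a summit offset. Genes came from RefSeq (GRCm38.p6, the assembly of mm10), each counted once. The table gives no strand, so both gene ends were used, with the peak of the highest fold as a gene's peak. The score was not used. Strand and starts came from the RefSeq promoter table. Overlap means at least 1 bp. Python 3.11.15, pandas 2.3.3 and SciPy 1.17.1 were used. Tested on simulated data, the window code found 800 of 800 planted genes, and a direct search gave other peaks at 0 of 2000 genes. The members and gene lists were chosen with earlier results of these data known. Every member could be named; other cell cycle genes were named for a −log10 q of at least 5 or a peak in a single list. With 1 library per genotype, no test between genotypes was possible. 1 gene of the marker list is not reported here.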

Additional observations from a re-analysis of the deposited data

How the results depend on the processing

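Of 127 recomputed values, 91 stayed within 1.5 times the reported count or within the 95% interval of the reported share or median, and 36 did not. A whole-gene region with 5 kb on both sides left 4 members in WT alone. Windows of 1 kb around the start alone left 7 of the 94 members with a start, of which the gene-end rule had 9 in WT alone. With q under 0.05 required in both lists, 46 members were marked in both and 19 in WT alone; the strongest 20000 peaks of each list marked 44 in both. At a −log10 q of at least 5 the counts were 28 in WT, 13 cKO, 11 both, 17 WT alone and 2 cKO alone. At 10 they were 6, 2, 1, 5 and 1. Over the 73 members with free windows, fewer genes by construction, 51, 48 and 42 were marked and 18, 4 and 4 were strong in WT, in the cKO list and in both. Peak sharing fell to 45.7% of WT and 58.9% of cKO peaks when 50% of a peak had to be covered, and to 53.8% and 61.4% with 3 kb windows. With a −log10 q of 5 or more required of the peaks of both lists it was 39.3% for WT (all gene ends 36.6%). The median fold and −log10 q stayed within their intervals under all alternatives run for them. Of the other cell cycle genes, 3 kb windows left 1 in the cKO list alone, q under 0.05 gave 16 in WT alone, and a −log10 q of at least 5 gave 23, 13, 12, 11 and 1 in the order above. The causes of these differences, beyond fewer genes or peaks entering, were not tested. No paired analysis was possible because each genotype has 1 library, and leaving out a replicate was not possible for the same reason.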
